A study of Mus musculus with 2 samples.

Results

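The developmental pluripotency-associated (Dppa) genes Dppa2, Dppa3, Dppa4 and Dppa5a were examined as 4 of 21938 protein-coding genes of the mouse annotation GENCODE vM21 (mm10). They were chosen by name, and every ATAC-seq peak that covered a gene start or lay within 20 kb on either side of the gene was taken, which gave 28 of 116777 peaks on chromosomes 1 to 19, X and Y. ATAC-seq maps accessible chromatin by letting the transposase Tn5 cut DNA that is not wrapped or bound. The cells were EHMT2-dTAG mouse embryonic stem cells (mESCs) on a BL6/129 hybrid background, derived from KH2 cells (C57BL/6J x 129S1 F1), and grown with LIF and serum on mitotically inactive fibroblast feeders. In these cells the endogenous histone methyltransferase EHMT2 is fused to the FKBP12F36V degron and HA tags and is co-expressed with an mCherry reporter. Both samples received the vehicle DMSO for 24 h and no degrader, so no EHMT2-depleted sample is among them, and each sample is 1 clone of 50000 cells. The deposited peaks were called on both clones merged. Their values therefore carry no spread between clones, no test across samples could be made, and every interval given here covers counting error only.

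All 4 genes are named for transcripts enriched in pluripotent cells and early embryos. DPPA2 and DPPA4 are SAP-domain proteins that bind each other and chromatin, keep developmental promoters open to later activation, and are needed for full expression of the transcription factor Dux and of genes of the 2-cell embryo. DPPA3, also called Stella or PGC7, is a maternal and germ cell protein that binds UHRF1 and limits maintenance of DNA methylation. DPPA5A, also called ESG1, is a small RNA-binding protein with a KH domain that marks embryonic stem cells.

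Dppa4 and Dppa2 are neighbours on chromosome 16 and are transcribed in the same direction. Dppa4 (ENSMUSG00000058550.15) spans chr16:48283733-48294237 on the plus strand, and Dppa2 (ENSMUSG00000072419.5) spans chr16:48303908-48319723 on the plus strand. Dppa3 (ENSMUSG00000046323.8) lies at chr6:122626410-122630272 on the plus strand, and Dppa5a (ENSMUSG00000060461.5) lies at chr9:78367052-78368177 on the minus strand. Positions below are given in bp from the GENCODE gene start in the direction of transcription, so that a negative position lies before the start.

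The genome sequence under the peaks on which the results turn is shown first, in windows of equal length, 5′ to 3′ on the strand of the gene. Windows hold the summit, the base with the highest fragment pileup, and 60 bases on either side, except at the downstream Dppa2 start, the Dppa3 start and the Dppa5a start, where they end just before the start. Capitals mark matches on either strand to 10 short motifs: the octamer ATGCAAAT, SOX CATTGT, KLF CCACCC, the GC box GGGCGG, the ESRRB site AAGGTCA, the TATA box TATAAA, the CCAAT box, the E-box CACGTG, ETS CCGGAAG and E2F TTCCCGC.
Dppa4 start (mm10 chr16:48283447-48283567, plus strand): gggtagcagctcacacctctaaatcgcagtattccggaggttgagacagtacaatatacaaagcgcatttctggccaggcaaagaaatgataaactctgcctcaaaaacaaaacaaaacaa
Dppa2 upstream start (mm10 chr16:48303723-48303843, plus strand): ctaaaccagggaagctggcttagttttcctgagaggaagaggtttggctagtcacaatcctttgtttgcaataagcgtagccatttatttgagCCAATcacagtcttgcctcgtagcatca
Dppa2 downstream start (mm10 chr16:48310153-48310273, plus strand): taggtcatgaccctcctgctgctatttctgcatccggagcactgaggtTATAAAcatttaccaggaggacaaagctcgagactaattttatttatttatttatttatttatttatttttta
Dppa3 start (mm10 chr6:122626289-122626409, plus strand): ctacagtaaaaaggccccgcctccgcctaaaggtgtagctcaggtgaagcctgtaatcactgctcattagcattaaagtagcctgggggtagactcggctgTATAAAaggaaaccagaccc
Dppa3 upstream peak (mm10 chr6:122624659-122624779, plus strand): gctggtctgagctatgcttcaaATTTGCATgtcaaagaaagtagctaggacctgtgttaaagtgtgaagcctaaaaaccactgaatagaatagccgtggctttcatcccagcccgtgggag
Dppa3 downstream peak (mm10 chr6:122633396-122633516, plus strand): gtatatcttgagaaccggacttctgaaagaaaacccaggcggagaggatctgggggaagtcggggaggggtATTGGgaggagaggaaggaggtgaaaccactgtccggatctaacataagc
Dppa5a start (mm10 chr9:78368200-78368320, minus strand): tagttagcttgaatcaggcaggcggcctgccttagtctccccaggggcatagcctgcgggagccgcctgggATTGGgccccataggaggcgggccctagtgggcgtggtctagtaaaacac
Dppa5a upstream peak (mm10 chr9:78369506-78369626, minus strand): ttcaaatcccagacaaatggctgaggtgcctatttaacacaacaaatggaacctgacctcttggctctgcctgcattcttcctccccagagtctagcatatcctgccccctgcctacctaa
The sequences named for a start lie at the gene starts, with both annotated starts of Dppa2. Those named for peaks lie under the peaks of highest fold enrichment on either side of Dppa3, and under the nearest peak before the Dppa5a start.

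All 4 Dppa gene starts lay in a peak, against 59.2% of all protein-coding gene starts (12990 of 21938). With RefSeq starts in place of GENCODE starts, again all 4 were covered, against 56.1% of 21774. At a stricter limit, a −log10 q-value of 10 or more, 2 of the 4 stayed covered, Dppa2 and Dppa4, against 45.0% of all starts. Dppa3 and Dppa5a lay in peaks below that limit. Of the 8 annotated transcripts of these genes, 7 started in a peak, and the exception was a shorter Dppa3 transcript, ENSMUST00000123429.1, that starts at position 343.

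The height of a peak is given as fold enrichment, the ratio of the fragments over the summit to the local background, with 1 added to each. Fragments and background were calculated back from the fold enrichment and p-value of each peak. Fold enrichment was 6.53 at the Dppa4 start (95% exact Poisson interval 4.42 to 9.34) and 6.16 at the Dppa2 start (4.07 to 8.98). It was 4.50 at the Dppa3 start (2.997 to 6.52) and 3.37 at the Dppa5a start (2.34 to 4.71). The intervals of all 4 overlapped. Overlap alone does not settle the order Dppa4, Dppa2, Dppa3, Dppa5a, and the differences were not tested. Across the 12990 covered starts, the median fold enrichment was 8.68, with quartiles of 6.12 and 11.6. Dppa4 (percentile 29.1) and Dppa2 (percentile 25.4) thus stood just above the lower quartile, and Dppa3 (percentile 10.1) and Dppa5a (percentile 3.18) stood below it.

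The fragments themselves gave another order. The Dppa5a start had 32 fragments over its summit (21.9 to 45.2), the Dppa4 start 28 (18.6 to 40.5), the Dppa3 start 26 (17.0 to 38.1) and the Dppa2 start 25 (16.2 to 36.9). These intervals overlap as well, and all 4 values lie between the lower quartile of 20 and the median of 34 over all covered starts. The local background separated the genes more. It was 8.80 fragments at Dppa5a, percentile 97.6 of covered starts, and 5.00 at Dppa3, percentile 82.6. At Dppa4 and Dppa2 it was 3.44 and 3.22, near the median of 2.96. The methods name no control sample for the ATAC-seq peaks. How far signal of neighbouring peaks enters this background was not tested, so a low fold enrichment need not mean few fragments. Dppa5a, lowest of the 4 in fold enrichment, was thus highest in fragments, and its percentile rose from 3.18 in fold enrichment to 46.8 in fragments. The −log10 q-values were 14.1 at Dppa4, 12.1 at Dppa2, 8.71 at Dppa3 and 7.01 at Dppa5a, where the median of covered starts was 21.1. In bulk samples, more cells with an open site and more cutting per cell cannot be told apart.

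**Figure D1:**
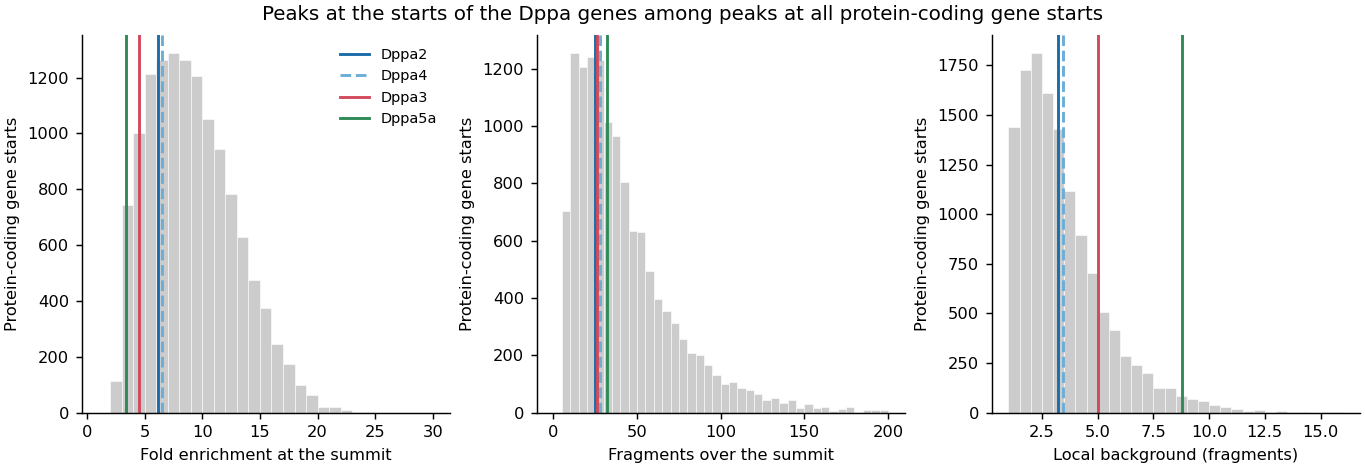
Fold enrichment, fragments over the summit and local background (x axes; the last 2 in fragments) of the peaks at 12990 protein-coding gene starts, as counts of gene starts per bin (grey bars), with the 4 Dppa genes as vertical lines. Dppa5a (green) lies far left in fold enrichment at 3.37 but near the other 3 in fragments at 32, and far right in local background at 8.80; a few values beyond the axes are not drawn.

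The start peaks also differed in width and in where they sat. The Dppa4 peak was 1150 bp wide, close to the median of 1058 bp over covered starts, with its summit at position −226. The Dppa2 peak was 996 bp wide, with its summit at −125. At Dppa3 and Dppa5a the peaks were 475 and 503 bp wide, percentiles 2.91 and 3.70. Their summits fell at positions 49 and 9, in untranslated exon sequence of the gene, whereas those of Dppa2 and Dppa4 fell before the gene.

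All 4 genes had at least 1 peak of higher fold enrichment within 20 kb than the one at their start, as did 46.0% of covered protein-coding genes (5977 of 12990). There were 2 such peaks for Dppa2, 1 for Dppa4, 4 for Dppa3 and 4 for Dppa5a. The windows of Dppa2 and Dppa4 share 5 peaks, so these are not separate observations.

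At Dppa2, the highest peak of the window lay inside the gene, at position 6308 (chr16:48310072-48310646, in an intron of the longer transcript). It had 60 fragments over the summit (45.8 to 77.2) against a background of 5.00, a fold enrichment of 10.2 (7.80 to 13.04) and a −log10 q-value of 39.6, which placed it at percentile 92.4 of all peaks in fold enrichment. The intervals of the fragments at this peak and at the upstream start did not overlap, while those of the fold enrichments did. The peak covers the start of the shorter Dppa2 transcript, ENSMUST00000097175.4, at position 6569, and the start that RefSeq gives for the gene, 6366 bp after the GENCODE start. Which start is used decides the rank of Dppa2: among 12223 covered RefSeq starts it stood at percentile 63.3. The RefSeq starts of the other 3 members lie within 22 bp of the GENCODE starts and share their peaks. A weaker peak at position 5325 had 15 fragments and a fold enrichment of 2.68, and the remaining peaks on either side of Dppa2, apart from the one at the Dppa4 start, held 7 to 9 fragments each. For Dppa4, no peak but the start peak itself was found in the 20 kb before the gene start. Every other peak of its window lay after the gene, toward or within Dppa2.

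At Dppa3, 3 of the 4 higher peaks had a fold enrichment interval wholly above that of the start, and the fourth, at position −8635, had 10 fragments and a fold enrichment of 4.91. The highest, at position −1691 (chr6:122624400-122625005), lies between genes. It had 68 fragments (52.8 to 86.2), a fold enrichment of 11.1 (8.62 to 14.0) and a −log10 q-value of 47.1, the highest of the 28 peaks in all 3 measures. Both its intervals lay above those of the start peak, with 26 fragments and a fold enrichment of 4.50. At position 7046 (chr6:122633135-122633793), after the end of the gene, a peak of 32 fragments (21.9 to 45.2) stood over a background of only 2.28, a fold enrichment of 10.1 (6.98 to 14.1). Its fragment interval overlapped that of the Dppa3 start, and its fold enrichment interval did not. A peak of 67 fragments (51.9 to 85.1) at position −17730, with a fold enrichment of 9.39, lies in an intron of Gdf3, which encodes a ligand of the TGF-beta family. The start of Gdf3 itself had a peak of 16 fragments and a fold enrichment of 2.36. The other Dppa3 peaks held 6 to 16 fragments, among them 1 in an intron of Dppa3 at position 1380, with 14 fragments and a fold enrichment of 2.48.

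Dppa5a is the shortest member at 1126 bp. Its 10 peaks ranged from 2.35 to 5.96 in fold enrichment and from 8 to 36 in fragments, and 1 passed the stricter limit. The highest, at position 9806, had 25 fragments (16.2 to 36.9), a fold enrichment of 5.96 (3.94 to 8.69) and Gsta2, a glutathione transferase gene, as its nearest gene start. Its fold enrichment interval overlapped those of the 4 highest peaks at Dppa2 and Dppa3. For the highest of these, whose interval began at 8.62, the overlap was narrow. Overlap alone does not settle whether the Dppa5a peak was lower, and the difference was not tested. Its fragment interval lay below those of the 3 peaks with 60 to 68 fragments. The most fragments, 36 (25.2 to 49.8), lay over the peak at position −1389, with a background of 9.40, the highest of the 28 peaks, and a fold enrichment of 3.56 (2.52 to 4.89). A peak of 26 fragments at position −6940 had a fold enrichment of 4.22 and Ooep, a gene of the maternal complex of the oocyte, as its nearest start. From −3365 to 3183, the 5 peaks of Dppa5a, start included, had 21 to 36 fragments over backgrounds of 7.88 to 9.40. The intervals in fold enrichment of all 5 overlapped, and differences among them were not tested.

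**Figure D2:**
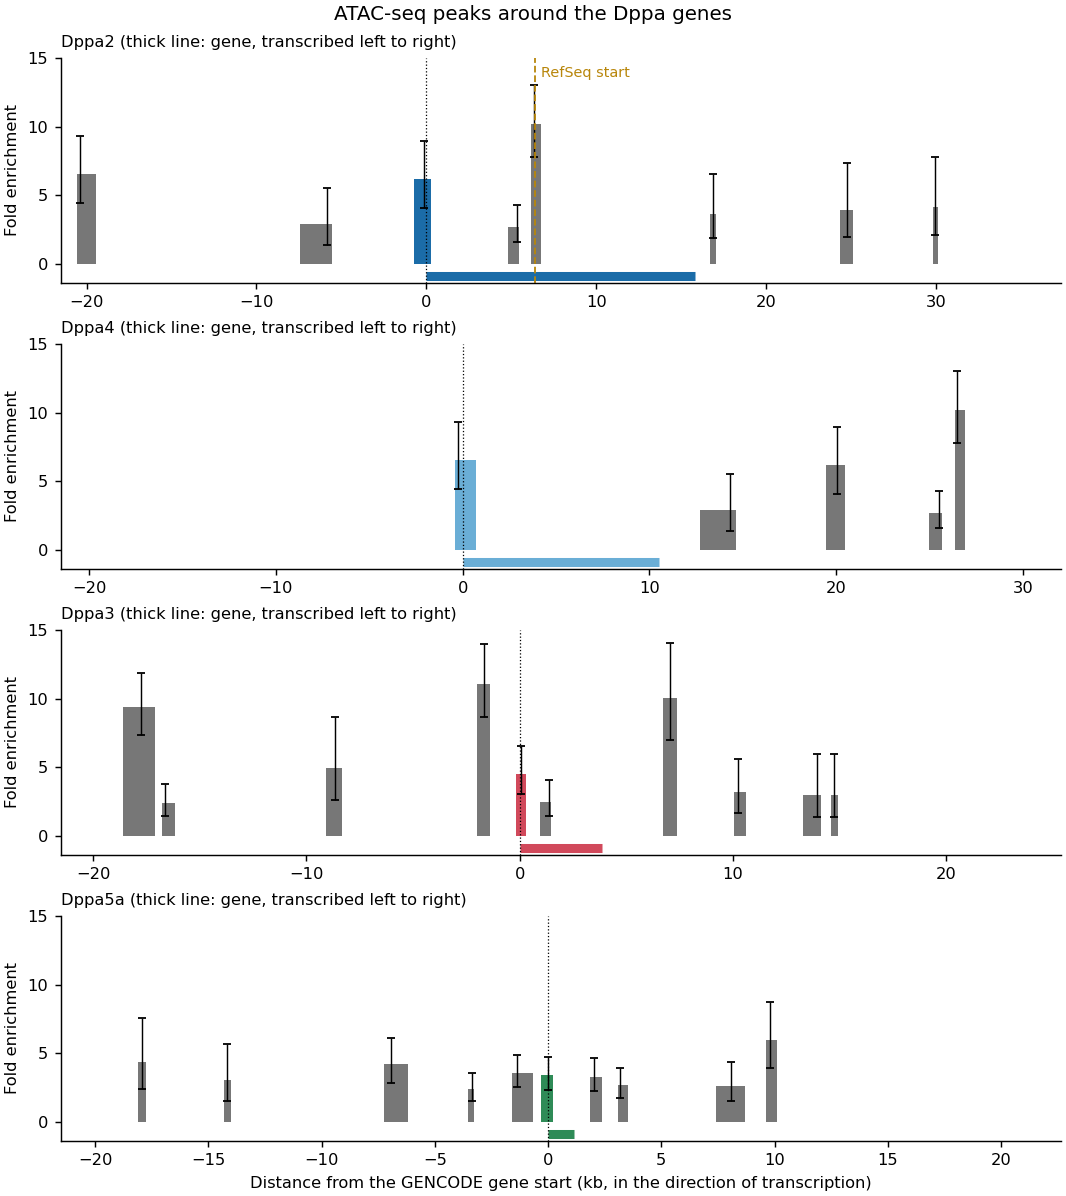
Fold enrichment (y axis) of every peak within 20 kb of Dppa2, Dppa4, Dppa3 and Dppa5a against distance from the GENCODE gene start in kb (x axis); bars span the peaks, coloured at the start of the named gene and grey elsewhere, whiskers at the summit are 95% exact Poisson intervals, and the thick line is the gene. Dppa2 and Dppa3 have peaks of 10.2 and 11.1 beside their start peaks of 6.16 and 4.50, while the 10 peaks of Dppa5a reach 5.96 at most.

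**Figure D3:**
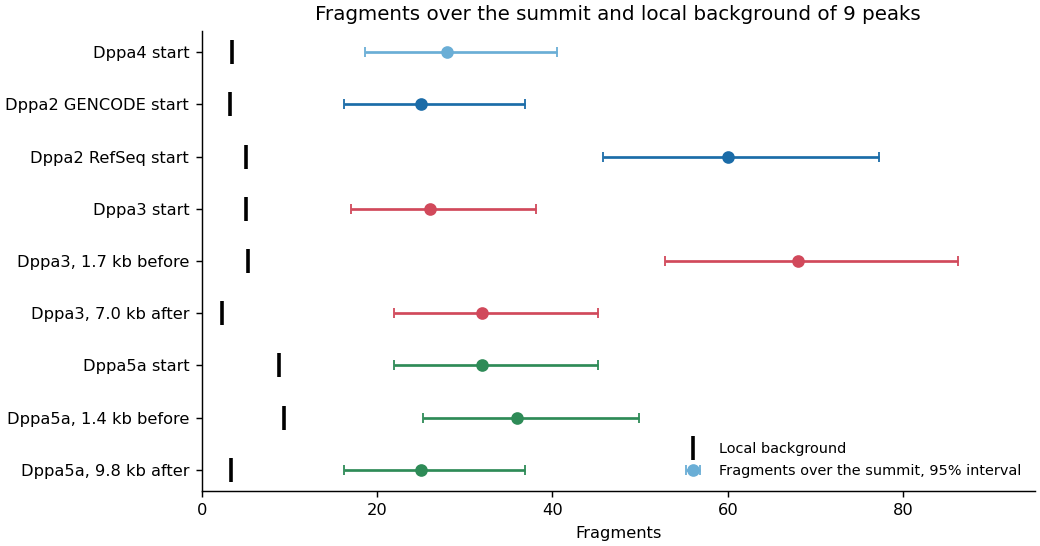
Fragments over the summit (points, with 95% exact Poisson intervals) and local background (black ticks), both in fragments on the x axis, for 9 peaks of the Dppa genes named on the y axis. The Dppa2 peak at the RefSeq start (60) and the Dppa3 peak before the gene (68) lie to the right of the rest (25 to 36), and the black ticks lie farthest right for 2 of the Dppa5a peaks.

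Peaks were dense around Dppa3 and Dppa5a. Within 20 kb there were 10 peaks at Dppa3, 10 at Dppa5a, 8 at Dppa2 and 5 at Dppa4, where the median protein-coding gene had 4, with quartiles of 2 and 7. Per 10 kb of gene and flanks this was 2.43 at Dppa5a, 2.28 at Dppa3, 1.43 at Dppa2 and 0.99 at Dppa4, at percentiles 99.89, 99.8, 93.8 and 77.4. Since short genes give short windows, the rank was also taken among the 10395 genes no longer than Dppa2, where the percentiles were 99.8, 99.6, 90.1 and 71.2 in the same order. Of the 28 peaks, 7 passed the stricter limit, and the share of the whole list that passes it was not calculated. At −log10 q-values of 10 or more, 1 peak was left at Dppa5a and 3 at each of the other genes, against a median of 1 and an upper quartile of 2. The 28 peaks had a median fold enrichment of 3.58, below the 3.98 of the whole list, and a median of 18.5 fragments, above the 9 of the list. The median in fragments was 12 at Dppa2, 15 at Dppa3, 25 at Dppa4 and 24 at Dppa5a.

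**Figure D4:**
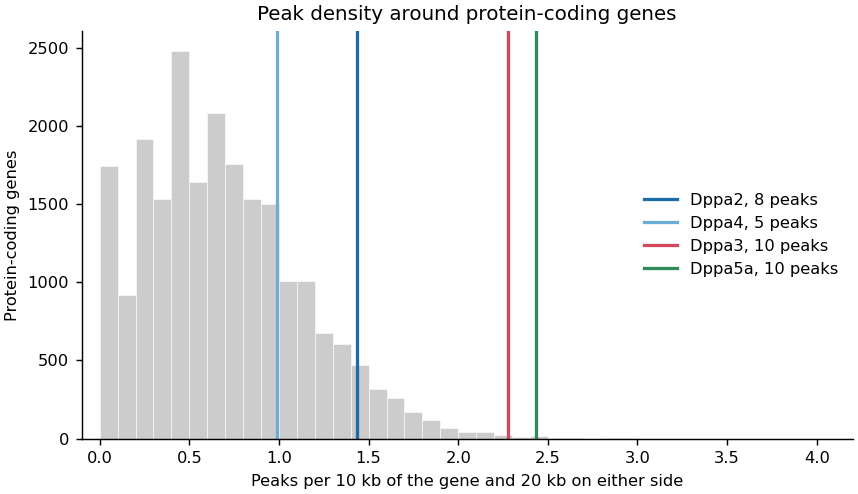
Peaks per 10 kb of the gene and 20 kb on either side (x axis) for 21938 protein-coding genes, as counts of genes per bin (grey bars), with the 4 Dppa genes as vertical lines. Dppa3 at 2.28 and Dppa5a at 2.43 lie in the right tail, and Dppa4 at 0.99 lies near the upper quartile of 0.953.

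The members share start peaks that are poor in CpG. The ratio of observed to expected CpG dinucleotides was 0.218 at Dppa2, 0.368 at Dppa4, 0.438 at Dppa5a and 0.513 at Dppa3, where the median over covered starts was 0.724 and the lower quartile 0.594. All 4 thus fell in the lowest quartile of CpG content, which by construction holds 3248 of the 12990 starts. GC content was 45.0% at Dppa2 and Dppa4, 52.8% at Dppa3 and 55.7% at Dppa5a, against a median of 60.6%. Peaks of this quartile were lower in general, with a median fold enrichment of 6.73 against 8.98 to 9.41 in the other 3 quartiles. Among the starts of the quartile, Dppa4 stood at percentile 47.7, Dppa2 at 43.4, Dppa3 at 21.2 and Dppa5a at 7.73. The quartile spans a wide range of ratios, so each member was also set beside the starts whose ratio lay within 0.05 of its own. Dppa2 stood at percentile 70.4 of 257 such starts and Dppa4 at percentile 58.1 of 592, both above the middle. Dppa3 stood at percentile 13.1 of 1151 and Dppa5a at percentile 6.07 of 775, both in the lower part. Repeat-masked bases made up 11.5% to 18.3% of the 4 start peaks, above the median of 6.20%.

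**Figure D5:**
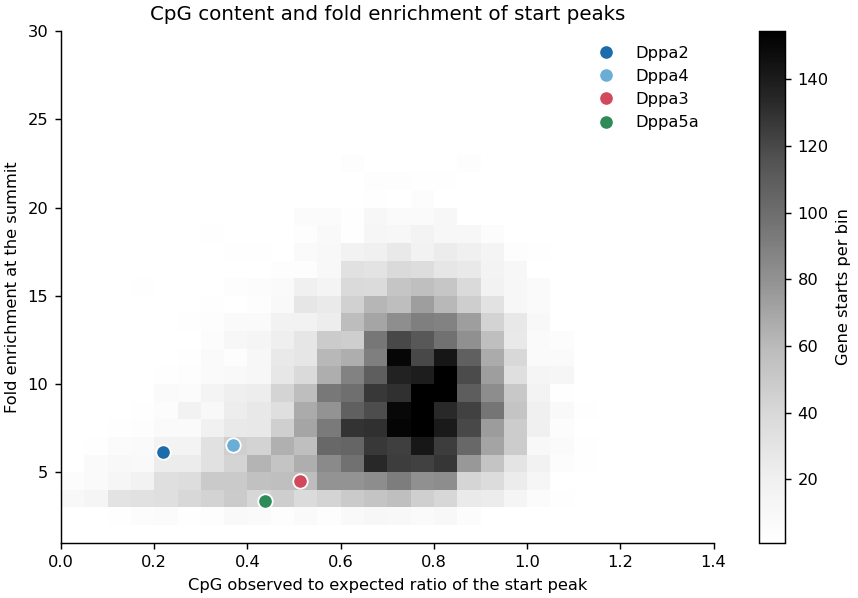
Fold enrichment at the summit (y axis) against the ratio of observed to expected CpG of the start peak (x axis) for covered protein-coding gene starts, shaded by the number of starts per bin, with the 4 Dppa genes as coloured points. All 4 points lie left of the dense part of the cloud, at ratios of 0.218 to 0.513.

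The 10 motifs were searched on both strands from 250 bases before to 50 after each gene start. Each motif was counted on its own, also where it overlapped another. Of 40 pairs of motif and gene, 8 had a match. The Dppa3 promoter held a TATA box, as did 12.6% of all protein-coding promoters, and it is shown in capitals in the Dppa3 start sequence above. The Dppa5a promoter held 3 KLF motifs, found in 32.1% of promoters, 1 GC box, found in 43.0%, and 1 ESRRB site, found in 4.16%. The Dppa4 promoter held 1 KLF motif. A CCAAT box, found in 39.0% of promoters, was present at Dppa2, Dppa3 and Dppa5a. In these windows neither the octamer, which the pluripotency factor OCT4 binds, nor the SOX motif was found, and 1.57% and 10.7% of all promoters hold them. Over 500 bases on either side of the start, the octamer had 1 match, at Dppa2, as did 4.07% of starts, and the SOX motif 1 match each at Dppa4 and Dppa5a, as did 29.7%. In the window of 60 bases on either side of the summit, over the 28 peaks, the octamer occurred once, at the Dppa3 peak at position −1691, where it reads ATTTGCAT on the gene's strand in the sequence above. It occurs in 1.39% of all peaks over the same length. The SOX motif occurred in 1 of the 28, the Dppa3 peak at position 13955, and in 6.43% of all peaks. The TATA box occurred in 3 of the 28, among them the Dppa2 peak at the RefSeq start, and in 4.55% of all peaks. A match of letters is not a measured binding site.

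Reads that match several places equally well were placed at 1 of them at random, so copies of the Dppa genes bear on these values. The 250 bases on either side of each summit were compared with the whole genome. None of the 4 start peaks had another match with 90% or more identity over 50% or more of those bases. The Dppa5a start came close to that limit: 249 bases, 49.7% of the length, from position 11 to 259 in the gene, matched each of the pseudogenes Dppa5b and Dppa5c at 96.4% identity. At the Dppa3 start, 185 bases from position 16 to 200 matched the pseudogene Dppa3-ps at 97.3%. No peak covered any of these 3 matches, nor the other shorter matches of at least 100 bases and 90% identity to the start peaks. All of these matches lie after the gene start, outside the sequences printed for these starts. Of the 28 peaks, 1 had matches over the limit, the Dppa2 peak at position 29904, with 76 of them, 11 at 98% identity or more. Below that limit, at 90% identity over 40% or more of the length, the Dppa3 peak at position 14762 had 221 matches. The Dppa5a peak at position −3365 had 4. What share of the fragments of these peaks, 8 at the Dppa2 peak and 6 at the Dppa3 peak, belongs to the other copies was not tested.

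Other genes with a Dppa name had no peak at their start. The nearest peak lay 2307 bp from the start of Dppa1, 19667 bp from Dppa5b, 46115 bp from Dppa5c and 56355 bp from Dppa3-ps. Among relatives of Dppa5a with a KH domain, 0 of 5 starts were covered (Khdc3, Ooep, Khdc1a, Khdc1b, Khdc1c), with the nearest peak 20 bp from the start of Khdc3.

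Genes tied to the members by function were counted in short lists, at GENCODE starts only, beside the 59.2% of all starts covered. Whether coverage differed between the lists, or from all starts, was not tested. Of 10 partners and regulators of DPPA2 and DPPA4, 8 had a covered start, with a median fold enrichment of 12.0, above the 8.68 of all covered starts. They ranged from Kmt2a, a histone H3 lysine methyltransferase, at 5.94 to Ezh2, the methyltransferase of Polycomb complex PRC2, at 13.9, and the other 6 were Smchd1, Ncl, Ash2l, Kmt2b, Ring1 and Rnf2. Pias4 and Trim28 were not covered, with the nearest peak 533 bp and 6513 bp from the start. Of 13 genes of the 2-cell stage that DPPA2 and DPPA4 help to activate, 0 were covered, among them Duxf3, the Zscan4 genes, Zfp352 and the Usp17l genes. Most of these belong to multicopy families, and the part that the random placement of reads had in this count was not tested. Of 9 genes tied to the role of DPPA3 in DNA methylation, 4 were covered, with a median fold enrichment of 5.25. These were Tet2 at 8.13, Uhrf1 at 5.53, Dnmt3b at 4.97 and Prdm14 at 4.02, and Dnmt1, Dnmt3a, Dnmt3l, Tet1 and Tet3 were not. A peak of 27 fragments and a fold enrichment of 6.48 lay 50 bp from the Dnmt3a start. For the other uncovered genes the nearest peak lay from 1238 bp (Dnmt3l) to 6559 bp (Dnmt1) away. The one nearest the Dnmt1 start had 39 fragments and a fold enrichment of 8.93. Those nearest Dnmt3l, Tet1 and Tet3 had 12 to 17 fragments and fold enrichments of 3.82 to 4.84. Other annotated starts of the listed genes were not counted, so an uncovered GENCODE start does not mean that no start of the gene lay in a peak.

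Markers of mESCs had 6 of 8 starts covered, against 59.2% of all starts, from Pou5f1 at 2.83 to Zfp42 at 15.9. Sox2 and Esrrb were not covered, but a peak of 17 fragments lay 130 bp from the Sox2 start. The nearest peak to the Esrrb start was 4459 bp away. Pou5f1 stood at percentile 0.385 of covered starts and Nanog, with a fold enrichment of 4.12, at percentile 7.19, and Dppa5a, at 3.18, lay between them. In fragments, Nanog had 40 over a background of 8.94, above the median of 34 over covered starts. Pou5f1 had 17 over a background of 5.36, below the lower quartile of 20. Of 8 fibroblast markers, fixed because the cells grew on feeders, 4 were covered at 4.74 to 6.59. Among the others, the nearest peak lay 75 bp from the start of Col1a2, 111 bp from Prrx1, 313 bp from Col1a1 and 2281 bp from Col3a1. For 2-cell-like cells 0 of 7 marker starts were covered, but all 7 are among the 13 genes of the 2-cell stage above, with the same limit on multicopy families. For primitive endoderm and trophoblast, 4 of 6 were covered, at 2.86 to 4.598, and the nearest peak lay 96 bp from the start of Elf5 and 15362 bp from Gata4. At −log10 q-values of 10 or more, 5 of 8 mESC starts and 1 of 8 fibroblast starts stayed covered. So did 0 of 7 for 2-cell-like cells and 0 of 6 for primitive endoderm and trophoblast, against 45.0% of all starts. Among the fibroblast markers, the peaks at Thy1, Twist2 and Pdgfrb had 11 to 12 fragments and that at Twist1 had 28. What part other cell types had in the Dppa peaks was not tested.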

How the data were processed

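ATAC-seq peaks of 2 clones of EHMT2-dTAG mESCs, called by the authors on both clones merged, were analysed. According to the methods and the submitters' processing notes, reads were trimmed, aligned to mm10 with STAR 2.7.10 at 1 best location with ties at random, freed of duplicates with Picard 2.26.0 and of ENCODE High Signal Regions, and shifted for Tn5, and peaks were called with MACS2 2.2.6 at a q-value of 0.05. SAMtools 1.14 and bedtools 2.30.0 were also used. The deposited fold enrichment is the ratio of summit pileup to local background, with 1 added to each. The −log10 p-values and −log10 q-values were used as deposited, and the deposited score was not used. Library totals were not analysed here.

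Fragments over the summit and the local background were calculated as the pair that gives both the fold enrichment and the p-value, within 0.01 in −log10 p, for all 116782 peaks, and 100% of 4996 simulated peaks were recovered. The median peak had 9 fragments. Intervals are exact Poisson 95% intervals that treat the background as known. Gene starts came from GENCODE vM21, an earlier release than the study used, and RefSeq (GRCm38.p6), which also gave the genome sequence. The peak that held a gene start was taken as its start peak. Percentiles are the share of covered starts, genes or peaks with a lower value and carry no test. The CpG ratio is the number of CpG times the length over the product of the C and G numbers. Sequences were searched with BLAST 2.17.0. The named genes were the 4 members, other Dppa genes, genes in the windows and the lists given. The members and lists were chosen with earlier results of these data known. Python 3.11.15, NumPy 2.4.6, pandas 2.3.3 and SciPy 1.17.1 were used.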

Additional observations from a re-analysis of the deposited data

How the results depend on the processing

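The values rest on 1 list of 1 condition, so leaving out either clone and any test between samples could not be run. No paired analysis was possible because the list merges both clones. Intervals cover counting error only and leave out differences between clones and the error of the background.

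Of 56 alternatives, 19 left the value within 1.5 times (counts) or within the 95% binomial interval (percentiles), and 37 moved it. For percentiles the interval rests on the number of all covered starts or all genes, also where the compared set was smaller. It is narrow and serves as a yardstick only, not as the error of a gene's rank, so small shifts also count as moved. RefSeq starts, both CpG groupings, a length limit of 40% for copies and genes no longer than Dppa2 were chosen after seeing the data. At −log10 q-values of 10 or more, covered starts fell from 4 to 2 and peaks within 20 kb to 3 at Dppa2, 3 at Dppa3, 3 at Dppa4 and 1 at Dppa5a. Windows of 50 kb gave 18 peaks at Dppa3 and 10 at Dppa4, and 10 kb gave 3 at Dppa4. In the order Dppa2, Dppa3, Dppa4, Dppa5a, the percentile of the start peak was 29.6, 20.7, 34.5 and 16.45 by −log10 q, 33.9, 36.0, 39.8 and 46.8 by fragments, 76.0, 59.2, 78.4 and 33.0 among all peaks, 43.4, 21.2, 47.7 and 7.73 in the same CpG quartile, and 70.4, 13.1, 58.1 and 6.07 among starts with a CpG ratio within 0.05. Among starts of the same chromosome it was 19.02 for Dppa2, 20.98 for Dppa4 and 2.74 for Dppa5a. With RefSeq starts it was 63.3 for Dppa2 and moved for no other member. Among genes no longer than Dppa2, the percentile in peaks per 10 kb was 90.1, 99.6, 71.2 and 99.8. For copies of the 4 start peaks, the stricter limits, 98% identity or 80% of the length, could only repeat the 0 found. At these start peaks, matches over 40% of the length or more gave 2, those of Dppa5a with Dppa5b and Dppa5c. The 500 bases on either side of starts gave 12 pairs of motif and gene instead of 8.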

Other observations

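Low CpG content was common over the whole list. The ratio of observed to expected CpG had a median of 0.252 over all 116777 peaks, and 94.3% of the 104953 peaks that cover no protein-coding gene start lay below the lower quartile of covered starts. Over the 28 peaks of the Dppa genes the ratio of observed to expected CpG ran from 0.105, at the Dppa3 peak at position 13955, to 0.519, at the intronic Dppa3 peak at position 1380. The 4 peaks of highest fold enrichment outside the GENCODE starts, Dppa3 at −1691, Dppa2 at 6308, Dppa3 at 7046 and Dppa3 at −17730, had ratios of 0.188, 0.380, 0.351 and 0.289. Repeat-masked bases made up 22.8%, 21.2%, 38.2% and 45.1% of these peaks, against 81.0% of the intronic Dppa2 peak at 5325, which had a fold enrichment of 2.68.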
